A study of Mus musculus with 45 samples.

Results

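Expression of 10 genes of apical constriction and actomyosin contraction was followed in mouse neuroepithelial organoids grown with or without retinoic acid (RA). These were the rows of the deposited count table whose Ensembl identifier maps to Rhob, Rock1, Rock2, Myh9, Myh10, Myl9, Shroom1, Shroom2, Shroom3 and Enah, which is 10 of 54532 genes, and all 10 were found.

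Apical constriction narrows the inner, apical end of an epithelial cell and so bends the sheet in which the cell sits, and it is one of the movements by which the neural plate folds into a tube. The kinases ROCK1 and ROCK2 phosphorylate the regulatory light chain of non-muscle myosin II and inhibit the phosphatase that acts on it. The heavy chains of that myosin, NMIIA and NMIIB, are encoded by Myh9 and Myh10, while Myl9 encodes a regulatory light chain. SHROOM3 recruits ROCK to the apical junctions, and mice that lack SHROOM3 can fail to close the neural tube. Enah encodes the actin elongation factor Mena.

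The data came from R1 mouse embryonic stem cells, labelled as wild type, that grew clonally in Matrigel in N2B27 medium into organoids labelled as neural tube organoids. Organoids were collected at day 2 before treatment, and then at 7 times (8 h, 18 h, 30 h, 42 h, 54 h, 66 h or 78 h later) from plain N2B27 (untreated) or from N2B27 with 250 nM all-trans RA (RA-treated), with 3 biological replicates for each of 15 conditions. The dose is that of the paper, and the times are those of the paper and the sample titles. The treatment text in the labels differs from them in both, giving the dose as 250 µM and partly other times, without 8 h. A single stem cell line stood behind all 45 libraries, and each library was the poly(A) RNA of whole organoids. A change in a bulk sample can come from fewer or more cells of a type or from less or more RNA per cell, and these cannot be told apart here.

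Libraries had 17298632 to 39688686 counts, and levels are given as CPM, counts scaled to a common library size after TMM normalization. The mean of 4 Y-linked genes (Ddx3y, Eif2s3y, Kdm5d and Uty) was 1.22 to 3.65 CPM in 6 libraries and 22.9 to 89.5 CPM in the other 39. At 30 h these were replicates 1 and 3 with RA and replicates 1 to 3 without, and at 8 h replicate 3 with RA. RA 8 h replicate 3 was thus unlike the other 5 libraries of its time point. RA 30 h replicate 2, at 29.1 CPM, was among the 39, while the other 5 at 30 h were of the low 6. A fit at 30 h without RA 30 h replicate 2 thus held only libraries of low Y-linked level. The members' results at 8 h and 30 h are given with and without RA 8 h replicate 3 and RA 30 h replicate 2. Library numbers also fell into an earlier and a later series, the latter with 16 libraries. The later series held all libraries at 66 h and 78 h, untreated 54 h replicate 3 and day 2 replicate 3. All libraries at 8, 18 and 42 h were of the earlier series, so late time and later series cannot be told apart. RA 30 h replicates 2 and 3 belonged to the later series while the 3 untreated libraries at 30 h belonged to the earlier series.

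The labelled tissue was checked against markers. The summed level of 8 neuroepithelial markers (Sox1, Sox2, Pax6, Nes, Cdh2, Hes5, Msi1 and Fabp7) lay between 472 and 489 CPM at day 2, between 1146 and 1326 CPM in untreated organoids at 78 h and between 1412 and 1609 CPM in RA-treated organoids at 78 h. The sum of 6 pluripotency markers went the other way, from 1794 to 1896 CPM at day 2 to between 478 and 578 CPM in untreated and between 270.2 and 513 CPM in RA-treated organoids at 78 h. These ranges of the arms overlapped, and single pluripotency markers went both ways with RA at 78 h, with 2 higher and 1 lower of 6 tested. Markers of other cell types were not equal between arms. The sum of 6 neuron markers was 246 to 283 CPM without and 115 to 125 CPM with RA at 42 h, and 289 to 303 CPM without and 362 to 392 CPM with RA at 78 h. That of 4 endothelial markers (Kdr, Pecam1, Cdh5 and Tek) was 114 to 134 CPM at day 2, and 18.5 to 23.1 CPM without and 50.1 to 65.2 CPM with RA at 78 h. This sum alone does not show that endothelial cells were present. At 78 h, 6 markers of surface ectoderm and trophoblast summed to 4.46 to 5.50 CPM without RA and 91.4 to 101 CPM with RA, and 6 endoderm markers to 3.00 to 3.49 CPM and 24.5 to 25.4 CPM, with Afp at or below 3 counts in each untreated library and Cer1 in each RA-treated one.

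Upstream sequence is shown for Rhob, which had the most time points past the test of RA, and for Myl9, whose RA effect changed sign with time. The sequences are from RefSeq (GRCm38.p6), 5′ to 3′ on the strand of the gene, and end at the base before the start of the gene in GENCODE M21. They cover chr12:8500010-8500259 on the minus strand for Rhob and chr2:156775214-156775419 on the plus strand for Myl9. Capitals mark CCAAT, or its reverse complement ATTGG, in Rhob and a CArG box, the motif that serum response factor (SRF) binds, in Myl9.
Rhob: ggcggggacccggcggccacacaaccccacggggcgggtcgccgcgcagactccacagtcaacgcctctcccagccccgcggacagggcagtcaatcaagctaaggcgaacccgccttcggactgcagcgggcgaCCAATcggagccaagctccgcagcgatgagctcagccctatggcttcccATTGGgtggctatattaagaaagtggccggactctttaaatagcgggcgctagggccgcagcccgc
Myl9: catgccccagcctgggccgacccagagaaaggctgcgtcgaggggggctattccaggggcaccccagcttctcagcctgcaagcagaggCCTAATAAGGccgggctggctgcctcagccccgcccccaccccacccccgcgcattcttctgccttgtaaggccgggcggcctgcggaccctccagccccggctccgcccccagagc

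The marked stretches of Rhob begin 115 and 66 bases upstream of that start, and that of Myl9 begins 117 bases upstream. For Myl9 the RefSeq start lies further downstream, and counted from it the stretch begins at -161. The promoter windows of 8 members with an entry, from 250 bases before to 50 after each RefSeq start, were searched on both strands. A CArG box was found for 1 of the 8 genes, Myl9, against 1.63% of all 32851 promoter windows. The letters CCAAT were found for 5 of the 8 genes against 37.4% of windows, and GGGCGG for 7 of the 8 against 35.7%, with some genes having several windows. Such matches describe letters in a window and not binding.

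Per length of their merged exons, the heavy chains had the highest means over all conditions, an order that did not hold in each of them. Merged exons pool all annotated transcripts of a gene, and were 21452 bases for Enah, 12928 for Myh9 and 10458 for Myh10. The order between genes, and the size of a ratio between members, thus depend on these lengths. Differences between arms in such a ratio do not. Averaged over the 15 conditions, Myh10 stood at 47.1 CPM per kb and Myh9 at 43.2 CPM per kb, followed by Enah at 26.1 CPM per kb, Rhob at 14.2 and Rock2 at 11.9 CPM per kb. Shroom2, Shroom3 and Rock1 lay close together at 7.13, 6.90 and 6.89 CPM per kb, an order within their spread across conditions. At day 2 Enah, at 39.9 ± 1.61 CPM per kb (SD, n = 3), stood above Myh10 at 19.3 ± 1.37 CPM per kb, and Enah was also above Myh10 in untreated organoids at 8 h and 18 h. In RA-treated organoids at 8 h the mean of Enah (37.5 ± 16.5 CPM per kb, with RA 8 h replicate 3) was above both heavy chains. Myl9 averaged 4.54 CPM per kb and Shroom1 0.213 CPM per kb. Myl9 went from 0.891 ± 0.362 CPM per kb (SD, n = 3) at day 2 to 10.9 ± 0.825 CPM per kb (SD, n = 3) in untreated organoids at 78 h.

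**Figure D1:**
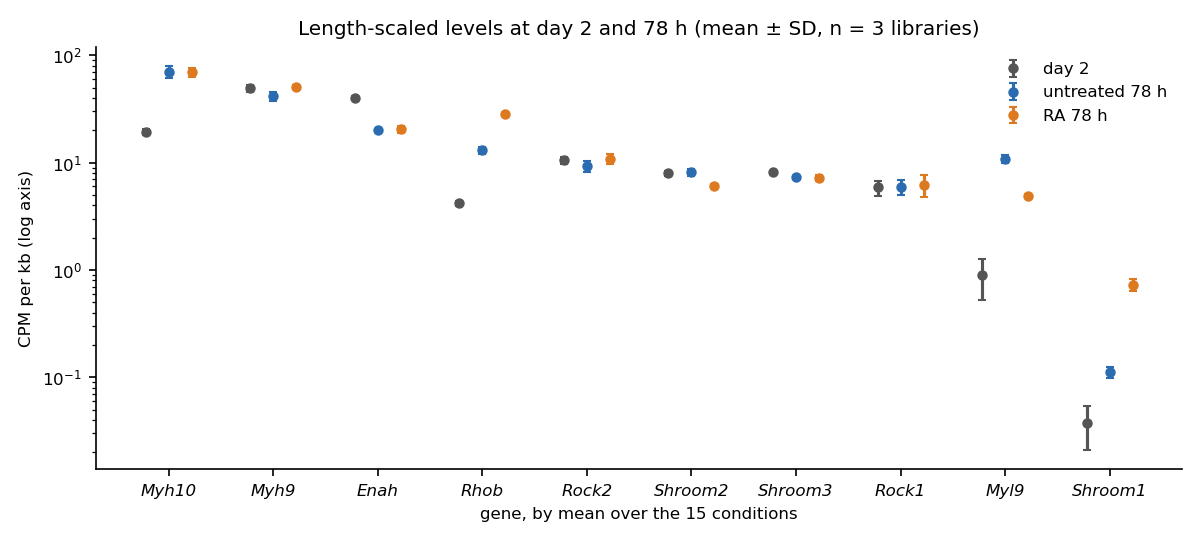
Length-scaled level of each member (CPM per kb of merged exons, log axis) at day 2 (grey), in untreated organoids at 78 h (blue) and in RA-treated organoids at 78 h (orange), as mean ± SD of 3 libraries, with genes ordered by their mean over the 15 conditions. Myh10, Rhob, Myl9 and Shroom1 stand higher at 78 h than at day 2, Enah stands lower, and Rhob and Shroom1 are highest with RA while Myl9 is highest without it.

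Between 1 and 7 of the 10 members passed the test of RA at a time point, most at 18 h and fewest at 30 h. A gene was taken as passing where the adjusted p was under 0.01 (quasi-likelihood test of edgeR, Benjamini-Hochberg adjusted over all genes tested), and as called where its log2 fold change was also above 1 or below -1. At 8 h, 2 of 9 tested members passed, both higher with RA, where 3.14% of all genes tested passed. At 18 h, 4 members were higher and 3 lower (7 of 10), against 42.6% of all genes, and at 30 h 1 was higher, against 14.1%. At 42 h, 3 were higher and 1 lower, against 37.5%, and at 54 h 5 were higher and 1 lower, against 38.7%. At 66 h, 2 were higher and 2 lower, against 33.3%, and at 78 h 3 were higher and 2 lower, against 33.4%. The median log2 fold change of the tested members lay between 0.01 at 8 h and 0.37 at 54 h, where the median of all genes was 0.02 and 0.00. Members were called at 18 h (Myl9, where 10.9% of all genes tested were called), at 42, 54 and 66 h (Rhob and Shroom1 at each, against 12.5%, 13.2% and 11.5%) and at 78 h (Rhob, Shroom1 and Myl9, against 11.7%). The arms did not overlap for 8 of 10 members at 8 h, where this held for 37.8% of all genes tested, for 7 at 18 h against 60.5%, for 5 at 30 h against 48.3% and for 5 at 42 h against 58.8%. The 8 at 8 h include Shroom1, which was not among the genes tested there. They did not overlap for 6 members at 54 h against 59.7%, for 4 at 66 h against 55.9% and for 5 at 78 h against 55.2%. Shares of members near those of all genes are no result about the members as a group, and the values of each gene follow.

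**Figure D2:**
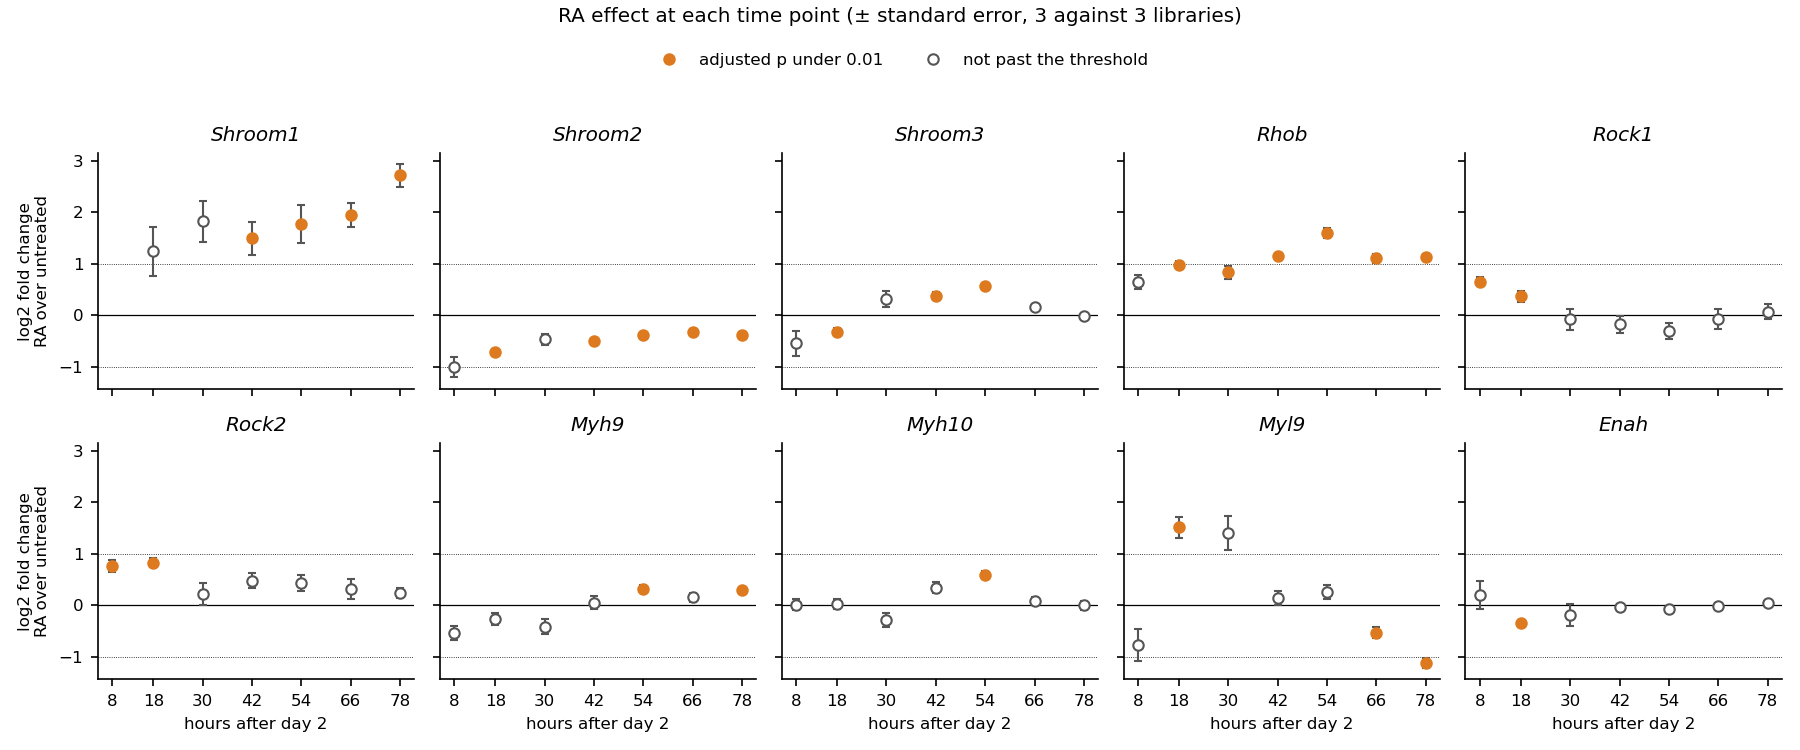
Log2 fold change of RA-treated over untreated organoids (vertical axis) at each time after day 2 (horizontal axis, hours) for the 10 members, with standard errors from 3 against 3 libraries. Filled orange points have an adjusted p under 0.01, and dotted lines mark log2 fold changes of 1 and -1. Rhob stays above 0 at 7 of 7 time points and Shroom2 below 0 at 7 of 7, while Myl9 goes from 1.51 at 18 h to -1.13 at 78 h.

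The effect of RA differed among the 7 time points for 6 of the 10 members, in a test of the RA-by-time interaction over 42 libraries that 33.2% of 19117 genes passed. The F statistics of edgeR's quasi-likelihood test were 26.4 for Myl9 (adjusted p = 8.1e-10), 10.9 for Rhob (adjusted p = 9.3e-06) and 8.53 for Shroom3 (adjusted p = 7.6e-05). They were 6.41 for Myh9 (adjusted p = 0.00066), 5.74 for Shroom2 (adjusted p = 0.0014) and 5.27 for Myh10 (adjusted p = 0.0024). Shroom1, Rock1, Rock2 and Enah did not pass, with adjusted p-values of 0.11, 0.10, 0.33 and 0.44. With only 2 replicates in each condition the count of members past the test fell, to 1 without the replicates numbered 1, to 3 without those numbered 2 and to 4 without those numbered 3, and Myl9 passed in all 3 of these fits. Without the 6 libraries at 30 h, Myh10 no longer passed (F = 4.05, adjusted p = 0.016). For Enah, the test passed (F = 7.11, adjusted p = 0.00061) when RA 8 h replicate 3 and the 6 libraries at 30 h were left out.

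Rhob, which encodes a small GTPase that sits on endosomes and the plasma membrane, was the member raised by RA at most time points. The gene (ENSMUSG00000054364) lies on the minus strand at chr12:8497661-8500009 in GRCm38 and is 1 exon of 2349 bases. Its level was 9.49, 10.5 and 9.59 CPM in the 3 day 2 libraries. At 18 h it was 15.8, 16.9 and 16.6 CPM in untreated and 30.9, 33.1 and 33.1 CPM in RA-treated libraries. All RA-treated libraries at 18 h stood above all untreated ones, as they did at each of the 7 time points. At 54 h it was 19.4, 20.6 and 24.0 CPM without RA and 73.7, 61.4 and 61.9 CPM with RA, the widest gap of the course. At 78 h it was 27.9, 31.0 and 32.7 CPM without RA and 66.8, 65.6 and 66.6 CPM with RA.

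Rhob was thus higher late than early in both arms, and higher with RA throughout. The log2 fold change of RA over untreated was 0.64 (standard error 0.13) at 8 h, 0.99 (0.07) at 18 h and 0.83 (0.12) at 30 h. It was 1.15 (0.06) at 42 h and 1.6 (0.10) at 54 h. At 66 h and 78 h it was 1.10 (0.08) and 1.13 (0.06). Of these, 6 passed edgeR's quasi-likelihood test, with adjusted p-values from 6.6e-08 at 78 h to 0.0025 at 30 h, and 4 were called. At 8 h the adjusted p in edgeR's quasi-likelihood test was 0.026, and without RA 8 h replicate 3 the log2 fold change was 0.74 with an adjusted p of 2.7e-05. At 30 h the log2 fold change was 0.73 (adjusted p = 3.3e-07) without RA 30 h replicate 2, and the adjusted p rose to 0.024, 0.016 and 0.021 without untreated 30 h replicates 1, 2 and 3 in turn.

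**Figure D3:**
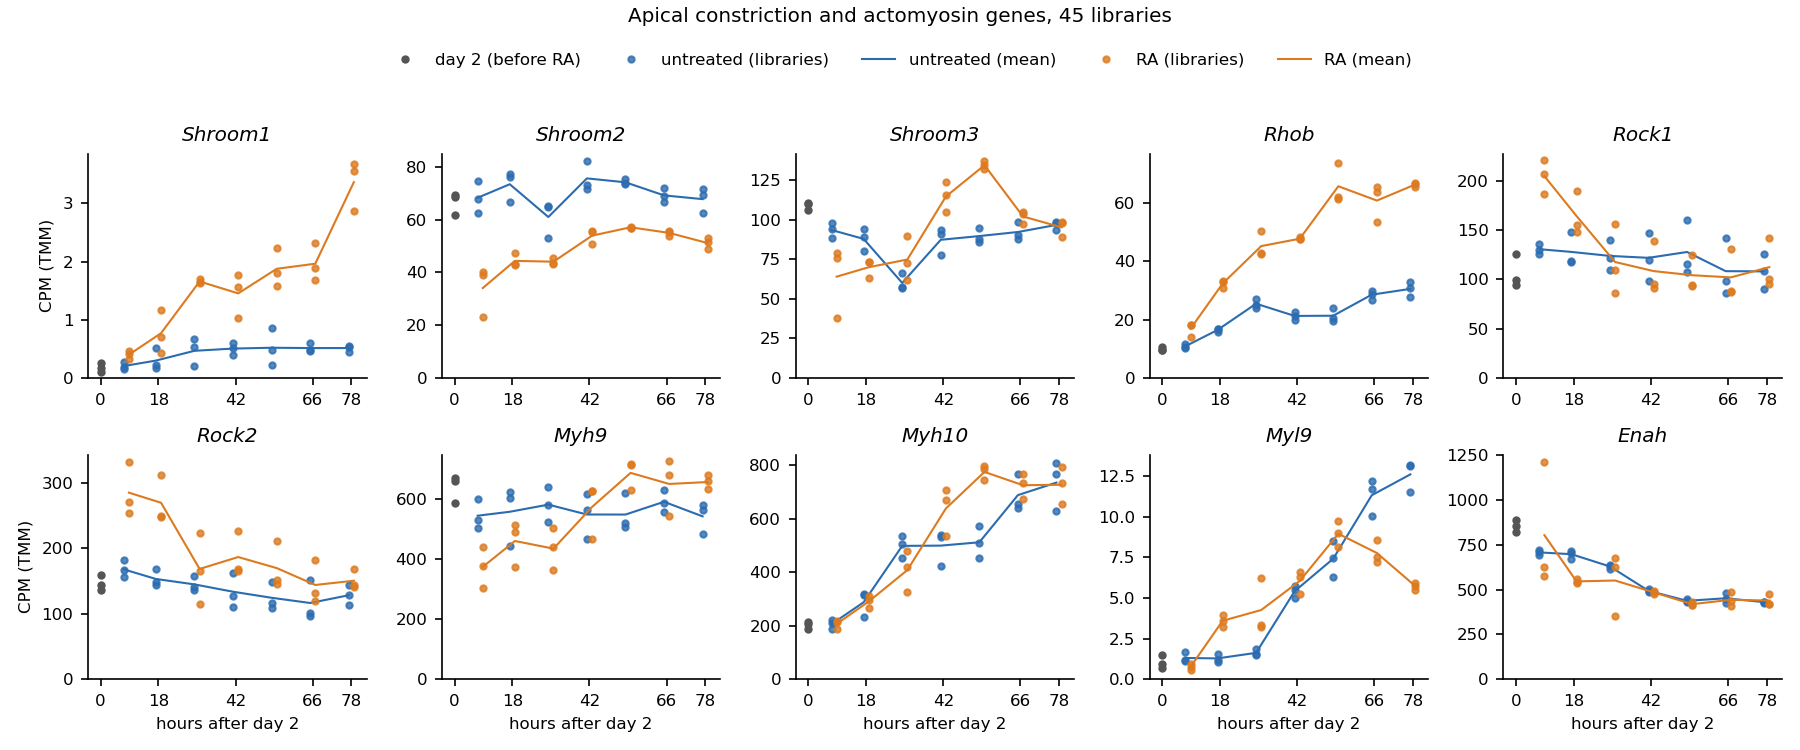
Level of each member (CPM after TMM normalization, vertical axes of their own scale) against hours after day 2 (day 2 at 0), with 1 point per library and lines through the means of 3 libraries, untreated in blue and RA-treated in orange. The Rhob arms are apart from 8 h on, the Myl9 arms cross between 8 h and 18 h and again between 54 h and 66 h, and RA 8 h replicate 3 stands apart for Enah at 1211 CPM.

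ROCK is encoded by Rock1 (ENSMUSG00000024290, chr18:10064401-10182045, minus strand) and Rock2 (ENSMUSG00000020580, chr12:16894895-16987823, plus strand), and both were higher with RA early. At 8 h Rock1 was at 136, 130.0 and 126 CPM in untreated and 187, 221 and 207 CPM in RA-treated libraries. Rock2 at 8 h was at 182, 166 and 156 CPM in untreated and 270.3, 332 and 254 CPM in RA-treated libraries. For both genes the arms did not overlap at 8 h. The log2 fold changes were 0.65 (standard error 0.09, adjusted p = 0.0055) for Rock1 and 0.77 (0.12, adjusted p = 0.0087) for Rock2 in edgeR's quasi-likelihood test. Without RA 8 h replicate 3 they were 0.63 and 0.83, with adjusted p-values of 1.1e-05 and 2.1e-06. When another library was left out, Rock1 kept a log2 fold change of at least 0.60 and Rock2 of at least 0.65, but the adjusted p passed 0.01 in 4 of 6 fits for Rock1, without untreated 8 h replicate 1, 2 or 3 or RA 8 h replicate 2, and in 5 of 6 for Rock2, these same 4 and RA 8 h replicate 1, reaching 0.046 and 0.061.

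At 18 h Rock2 was at 148, 168 and 143 CPM in untreated and 312, 248 and 249 CPM in RA-treated libraries, which did not overlap, and its log2 fold change was 0.83 (standard error 0.09, adjusted p = 8.6e-06, edgeR's quasi-likelihood test). Rock1 at 18 h was at 118, 148 and 118 CPM in untreated and 189.9, 148 and 155 CPM in RA-treated libraries, a log2 fold change of 0.37 (0.11, adjusted p = 0.0094). Rock1 at 18 h no longer passed in 4 of 6 fits with 1 library left out: the adjusted p was 0.044 and 0.046 without untreated 18 h replicates 1 and 3, and 0.034 and 0.021 without RA 18 h replicates 1 and 3. From 30 h on neither gene passed in the fits of all 6 libraries that did not take the replicate number as a block. Leaving out RA 30 h replicate 2 gave Rock1 at 30 h a log2 fold change of 0.08 in place of -0.08. Rock1 had log2 fold changes between -0.31 at 54 h and 0.07 at 78 h, and Rock2 between 0.21 at 30 h and 0.47 at 42 h, all above 0. At 66 h, where same-numbered replicates deviated together, Rock2 (0.32, adjusted p = 0.19) passed with the replicate number as a block (0.32, adjusted p = 6.6e-05). With that block in edgeR's quasi-likelihood test, Rock2 also passed at 54 h (0.43, adjusted p = 7.8e-05) and 78 h (0.25, adjusted p = 0.00046). So did Rock1 at 54 h (-0.30, adjusted p = 0.00092). Within an arm the libraries were spread widely, with Rock1 in the untreated 66 h libraries from 85.8 to 142 CPM. At 54, 66 and 78 h this spread went with the replicate number, as replicate 1 was the highest of either arm for both genes. Rock2 passed on leaving out 1 library at 30 h (0.40 without RA 30 h replicate 2, adjusted p = 0.0013), at 42 h (0.62 without untreated 42 h replicate 1, adjusted p = 0.0027) and at 54 h (0.59 without untreated 54 h replicate 1, adjusted p = 0.0092).

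The balance of the kinases was also taken within each library. On counts per kb, the log2 ratio of Rock2 over Rock1 in untreated organoids was 0.64 ± 0.07 (SD, n = 3) at 18 h, 0.51 ± 0.04 at 42 h and 0.35 ± 0.06 at 54 h. In RA-treated organoids it was 1.10 ± 0.03 at 18 h, 1.17 ± 0.08 at 42 h and 1.08 ± 0.06 at 54 h. The arms did not overlap at 18, 30, 42, 54 and 66 h, and the difference was 0.45 at 18 h, 0.66 at 42 h, 0.73 at 54 h and 0.39 at 66 h. Each of these differences had p = 0.1 in a two-sided exact permutation test, the smallest p that 3 against 3 libraries can give, and 0.124 after Benjamini-Hochberg adjustment over 21 such comparisons. At 8 h and 78 h the arms overlapped, with differences of 0.11 (0.20 without RA 8 h replicate 3) and 0.19. At 30 h the difference was 0.28, and 0.27 without RA 30 h replicate 2.

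**Figure D4:**
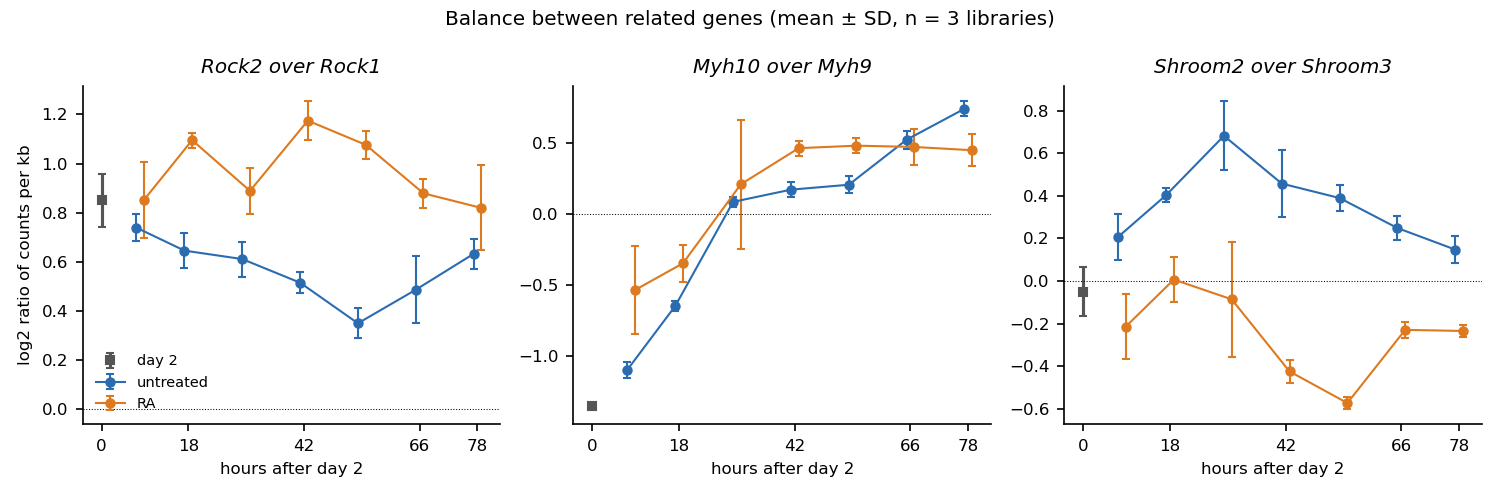
Log2 ratio of counts per kb between related members (vertical axes) against hours after day 2, as mean ± SD of 3 libraries, for Rock2 over Rock1, Myh10 over Myh9 and Shroom2 over Shroom3, with day 2 in grey, untreated in blue and RA-treated in orange. The RA line lies above the untreated one for Rock2 over Rock1 and below it for Shroom2 over Shroom3 at 7 of 7 time points, and the lines cross for Myh10 over Myh9.

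The heavy chains of non-muscle myosin II differed in their course. Myh10 (ENSMUSG00000020900, chr11:68691559-68816632, plus strand), which encodes the NMIIB heavy chain that is abundant in the nervous system, was at 206, 214 and 186 CPM at day 2 and at 629, 767 and 809 CPM in untreated libraries at 78 h. At 54 h Myh10 was at 455, 573 and 508 CPM in untreated and 743, 784 and 797 CPM in RA-treated libraries. That was the only time point of Myh10 without overlap and the only one that passed, with 0.58 on the log2 scale (standard error 0.08, adjusted p = 0.00010, edgeR's quasi-likelihood test). At 42 h it was 0.34 (adjusted p = 0.021, and 0.45 with an adjusted p of 0.0021 without RA 42 h replicate 3). Its log2 fold change at 8 h was 0.01 (-0.04 without RA 8 h replicate 3) and at 30 h -0.29 (-0.17 without RA 30 h replicate 2), and neither passed. At 66 h and 78 h the log2 fold changes of Myh10 were 0.09 and 0.00, with overlapping arms.

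Myh9 (ENSMUSG00000022443, chr15:77760587-77842175, minus strand) encodes the heavy chain of NMIIA. At 8 h it was at 529.6, 598 and 503 CPM in untreated and 441, 376 and 302 CPM in RA-treated libraries, which did not overlap, with -0.54 on the log2 scale (standard error 0.14, adjusted p = 0.046, edgeR's quasi-likelihood test) and of -0.42 (adjusted p = 0.0013) without RA 8 h replicate 3. At 30 h the log2 fold change was -0.42 (adjusted p = 0.069) and, without RA 30 h replicate 2, -0.56 (adjusted p = 2.4e-05). At 18 h it was -0.26 (adjusted p = 0.079), and -0.41 (adjusted p = 0.0017) without untreated 18 h replicate 2. Later values lay on the other side of 0: at 78 h Myh9 was at 483, 562 and 578 CPM in untreated and 631, 677 and 658 CPM in RA-treated libraries, which did not overlap. The log2 fold change of Myh9 was 0.31 (0.08, adjusted p = 0.0081) at 54 h and 0.29 (0.06, adjusted p = 0.0027) at 78 h in edgeR's quasi-likelihood test. Myh9 no longer passed in 4 of 6 fits at 54 h, without untreated 54 h replicates 1 or 3 or RA 54 h replicates 2 or 3 (adjusted p = 0.034 to 0.042), and in 2 of 6 at 78 h, without replicate 2 of either arm (adjusted p = 0.013 and 0.020). With a single library left out, 1 further time point passed: at 66 h the log2 fold change of Myh9 was 0.15, and 0.27 (adjusted p = 0.0030) without RA 66 h replicate 1.

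The balance of the heavy chains moved with time in both arms. The log2 ratio of Myh10 over Myh9 in counts per kb was -1.10 ± 0.05 (SD, n = 3) at 8 h and 0.74 ± 0.05 at 78 h in untreated organoids, and -0.53 ± 0.31 and 0.45 ± 0.11 in RA-treated ones. RA-treated organoids had the higher ratio at 8, 18, 42 and 54 h, by 0.56, 0.30, 0.29 and 0.28, and the lower one at 78 h, by -0.29, and at each of these the arms did not overlap (exact permutation p = 0.1, adjusted 0.124). Without RA 8 h replicate 3 the difference at 8 h was 0.38. At 30 h and 66 h the arms overlapped, and the difference at 30 h was 0.12 (-0.03 without RA 30 h replicate 2).

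Myl9 (ENSMUSG00000067818, chr2:156775420-156781658, plus strand) encodes a myosin regulatory light chain typical of contractile cells, and its RA effect changed direction. At 18 h Myl9 was at 1.08, 1.57 and 1.17 CPM in untreated and 3.6, 3.96 and 3.22 CPM in RA-treated libraries, from 24 to 44 and 74 to 96 counts. At 42 h it was at 4.99, 5.74 and 5.52 CPM in untreated and 6.62, 6.26 and 5.27 CPM in RA-treated libraries, which overlapped. At 78 h it was at 11.5, 13.2 and 13.1 CPM in untreated and 5.76, 5.94 and 5.46 CPM in RA-treated libraries. At 8 h Myl9 was at 1.15, 1.64 and 1.11 CPM in untreated and 0.922, 0.770 and 0.553 CPM in RA-treated libraries. The RA-treated libraries thus lay below the untreated ones at 8 h, above them at 18 h and below them again at 66 h and 78 h, and the RA-treated level was highest at 54 h (9.74, 9.0 and 8.12 CPM).

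In edgeR's quasi-likelihood test the log2 fold change of Myl9 was 1.51 (standard error 0.20, adjusted p = 3.9e-05) at 18 h, -0.53 (0.11, adjusted p = 0.0025) at 66 h and -1.13 (0.10, adjusted p = 5.0e-06) at 78 h. At 8 h Myl9 did not pass, with -0.78 (adjusted p = 0.16) and, without RA 8 h replicate 3, -0.62 (adjusted p = 0.18). At 42 h and 54 h it did not pass either, with 0.15 and 0.25. At 30 h it was 1.41 (adjusted p = 0.018), with RA 30 h replicate 2 the highest of the RA-treated libraries at 6.25 CPM against 3.33 and 3.19 CPM. Without that library the log2 fold change of Myl9 at 30 h was 1.00 (adjusted p = 0.0011). At 66 h Myl9 no longer passed without untreated replicates 1 or 3 or RA replicate 2 (adjusted p = 0.011, 0.012 and 0.013), while at 18 h and 78 h it passed in 6 of 6 fits with 1 library left out.

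Markers of mesoderm and mesenchyme, of which contractile cells can be part, had sums that ran in the direction of Myl9 at most times but not at 54 h. Their sum over 8 genes was 9.94 to 12.4 CPM in untreated and 14.2 to 15.5 CPM in RA-treated libraries at 18 h, and 28.2 to 37.5 CPM and 18.0 to 19.6 CPM at 78 h. Of the 8 markers, Col3a1 was at or below 3 counts in each library of both arms at 18 h and Msgn1 in each library of both arms at 78 h. At 8 h the sums were 13.4 to 14.8 CPM without RA and 4.48 to 11.1 CPM with RA, and at 30 h 5.87 to 9.39 CPM and 17.4 to 24.3 CPM. They overlapped at 42 h, at 13.8 to 19.9 CPM and 16.9 to 18.6 CPM. At 66 h the sums were 22.4 to 26.1 CPM without RA and 15.5 to 19.9 CPM with RA. At 54 h they were lower with RA, at 16.7 to 19.3 CPM against 19.9 to 23.0 CPM, while the Myl9 means were not. Single markers went both ways, with 2 higher and 1 lower of 6 tested at 18 h, and 2 higher and 2 lower of 7 tested at 78 h. Of 6 tested, 0 passed at 8 h, and 2 were higher and 0 lower at 30 h. The part of such cells in the Myl9 result was not tested.

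The Shroom genes encode actin-binding proteins that place ROCK at the cell cortex, and RA moved them in different directions. Shroom2 (ENSMUSG00000045180, chrX:152609509-152769465, minus strand) was lower with RA at 7 of 7 time points, without overlap at any of them. At 18 h it was at 77.2, 66.8 and 76.3 CPM in untreated and 43.0, 47.2 and 42.9 CPM in RA-treated libraries. At 78 h Shroom2 was at 62.6, 71.6 and 69.2 CPM in untreated and 48.7, 53.0 and 51.7 CPM in RA-treated libraries. All 21 RA-treated libraries stood below each of the day 2 libraries (68.6, 69.3 and 61.9 CPM).

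Shroom2 passed edgeR's quasi-likelihood test at 18, 42, 54, 66 and 78 h, with log2 fold changes of -0.72 (standard error 0.06, adjusted p = 1.2e-06), -0.50 (0.07), -0.39 (0.05), -0.32 (0.05) and -0.39 (0.06), and none of them reached -1. At each of these 5 time points Shroom2 passed in 6 of 6 fits with 1 library left out. At 8 h the log2 fold change of Shroom2 was -0.998 (0.19, adjusted p = 0.021), with RA 8 h replicate 3 at 23.2 CPM below the other RA-treated libraries at 40.1 and 39.1 CPM. Without it the log2 fold change at 8 h was -0.80 (adjusted p = 2.0e-06). At 30 h it was -0.47 (adjusted p = 0.017), and -0.48 (adjusted p = 9.0e-05) without RA 30 h replicate 2.

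Shroom3 (ENSMUSG00000029381, chr5:92683435-92965318, plus strand), the family member best known for neural tube closure, was lower with RA early and higher in the middle of the course. At 18 h it was at 94.3, 80.4 and 89.0 CPM in untreated and 63.5, 73.3 and 73.2 CPM in RA-treated libraries. At 54 h Shroom3 was at 86.0, 95.1 and 87.9 CPM in untreated and 135, 137 and 132 CPM in RA-treated libraries. Neither time point had overlap. At 78 h the arms overlapped, at 93.4, 98.1 and 98.6 CPM without and 89.0, 98.6 and 98.1 CPM with RA.

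The log2 fold change of Shroom3 was -0.32 (standard error 0.07, adjusted p = 0.0015) at 18 h, 0.38 (0.08, adjusted p = 0.0021) at 42 h and 0.57 (0.06, adjusted p = 1.5e-05) at 54 h in edgeR's quasi-likelihood test. Shroom3 at 42 h no longer passed without RA 42 h replicates 1 or 2 (adjusted p = 0.011 and 0.010). At 8 h the log2 fold change of Shroom3 was -0.54 (adjusted p = 0.19), and -0.29 (adjusted p = 0.0053) without RA 8 h replicate 3, which was at 37.6 CPM against 78.8 and 75.6 CPM. At 30, 66 and 78 h Shroom3 did not pass, with 0.32, 0.16 and -0.01, and at 30 h the value was 0.15 without RA 30 h replicate 2. The log2 ratio of Shroom2 over Shroom3 was lower with RA at 7 of 7 time points without overlap. The difference in that ratio was between -0.38 at 78 h and -0.96 at 54 h (exact permutation p = 0.1 at each, adjusted 0.124). It was -0.42 at 8 h and -0.77 at 30 h, and -0.51 and -0.88 without the libraries that stood apart.

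Shroom1 (ENSMUSG00000018387, chr11:53457205-53467766, plus strand) was close to the detection limit, with 2 to 105 counts in a library. It was at 0.166, 0.0999 and 0.249 CPM at day 2. At 78 h Shroom1 was at 0.539, 0.446 and 0.558 CPM in untreated and 2.87, 3.55 and 3.68 CPM in RA-treated libraries, from 15 to 20 and 99 to 105 counts. The arms did not overlap at any time point from 30 h to 78 h. The log2 fold change of Shroom1 in edgeR's quasi-likelihood test was 1.83 (standard error 0.40, adjusted p = 0.013) at 30 h, 1.5 (0.32, adjusted p = 0.0027) at 42 h, 1.77 (0.37, adjusted p = 0.0022) at 54 h, 1.94 (0.23, adjusted p = 8.8e-05) at 66 h and 2.71 (0.22, adjusted p = 2.0e-06) at 78 h. Shroom1 was removed by the filter on low counts at 8 h. At 30 h it passed without RA 30 h replicate 2 (1.82, adjusted p = 0.00060).

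Shroom1 no longer passed at 42 h without untreated 42 h replicate 3 or RA 42 h replicates 1 or 2 (adjusted p = 0.013, 0.015 and 0.014), and at 54 h without untreated 54 h replicate 2 (adjusted p = 0.014), while at 66 h and 78 h it passed in 6 of 6 fits. The sum of the 6 surface ectoderm and trophoblast markers was higher with RA at 18 h and from 42 h on, at 6.56 to 10.5 CPM without and 20.3 to 23.5 CPM with RA at 42 h, 4.77 to 8.46 and 52.7 to 72.6 CPM at 66 h and the values given above at 78 h. Of the 3 markers tested at 42 h, 2 were higher and 1 lower. At 30 h the sums were 2.23, 2.94 and 22.8 CPM with RA and 4.03 to 4.21 CPM without, while Shroom1 stood between 1.62 and 1.70 CPM in the RA-treated libraries. The part of these markers in the Shroom1 result was not tested.

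Enah (ENSMUSG00000022995, chr1:181896384-182019990, minus strand), whose product Mena extends actin filaments at their barbed ends, showed little effect of RA. At 18 h it was at 707, 669 and 716 CPM in untreated and 544, 558 and 534 CPM in RA-treated libraries, which did not overlap. Its log2 fold change at 18 h was -0.34 (standard error 0.05, adjusted p = 3.8e-05, edgeR's quasi-likelihood test). At 8 h Enah was at 719, 709 and 695 CPM in untreated and 624, 576 and 1211 CPM in RA-treated libraries, the last being RA 8 h replicate 3. The log2 fold change at 8 h was 0.20 (adjusted p = 0.69) with that library and -0.25 (adjusted p = 0.0084) without it. From 42 h on, the log2 fold changes of Enah lay between -0.08 and 0.04 and did not pass.

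At 30 h the RA-treated library apart from the others was RA 30 h replicate 2, whose Y-linked level was like that of most libraries of the series. It had Enah at 352 CPM against 626 and 673 CPM in the other RA-treated libraries. The log2 fold change of Enah went from -0.20 to 0.02 without it, in a fit of libraries of low Y-linked level only. Leaving out that library raised the number of members past the test at 30 h from 1 to 6, with Shroom1, Rock2, Myl9 and Rhob higher and Shroom2 and Myh9 lower. Leaving out RA 8 h replicate 3 raised the number at 8 h from 2 to 7, with Rock1, Rock2 and Rhob higher and Shroom2, Shroom3, Myh9 and Enah lower. The share of all genes passing in these fits was not taken. With 1 library left out, counts among 91 other genes of the same machinery ranged over 2 to 21 higher and 1 to 20 lower at 30 h. At 8 h they ranged over 0 to 19 higher and 0 to 9 lower. These rises are thus no result about the members as a group.

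During growth from day 2, Myh10, Myl9 and Rhob rose and Enah fell in both arms. These comparisons of either arm share the 3 day 2 libraries, and 55.0% of all genes passed from day 2 to 42 h without RA, 66.0% from day 2 to 42 h with RA, and 69.5% and 69.9% to 78 h. All libraries at 78 h were of the later series, while day 2 replicates 1 and 2 were of the earlier one. Growth and library series thus cannot be fully told apart in the changes to 78 h. Myl9 rose from 1.49, 0.949 and 0.664 CPM at day 2 by log2 fold changes of 2.41 (standard error 0.24) at 42 h and 3.59 (0.19) at 78 h without RA and of 2.55 (0.24) and 2.46 (0.24) with RA. Rhob rose by 1.14 (0.09) and 1.63 (0.08) without RA and by 2.29 (0.07) and 2.75 (0.07) with RA. Myh10 rose by 1.34 (0.09) and 1.86 (0.08) without RA and by 1.67 (0.09) and 1.85 (0.08) with RA. Each of these 12 changes passed edgeR's quasi-likelihood test, with adjusted p-values of at most 9.3e-07.

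Enah fell from 856, 889.8 and 821 CPM at day 2 to 427, 429 and 433 CPM without RA and 476, 419 and 420.2 CPM with RA at 78 h, log2 fold changes of -0.99 (standard error 0.05) and -0.97 (0.06). Shroom1 rose with RA by 3.02 (0.42) at 42 h and 4.22 (0.33) at 78 h, from day 2 libraries of 2 to 6 counts, and without RA by 1.52 (0.46, adjusted p = 0.0069, edgeR's quasi-likelihood test) at 78 h, which no longer passed without day 2 replicates 1 or 2 or any untreated 78 h replicate (adjusted p = 0.014 to 0.040). Shroom2 fell with RA by 0.29 at 42 h and by 0.38 at 78 h on the log2 scale, and without RA its changes of 0.22 and 0.03 did not pass (at 42 h 0.25, adjusted p = 0.0078 in edgeR's quasi-likelihood test, without untreated 42 h replicate 1). Shroom3 fell without RA by 0.29 and by 0.17, the former lost without day 2 replicate 1 (adjusted p = 0.012, edgeR's quasi-likelihood test) and the latter without day 2 replicate 1 or any untreated 78 h replicate (adjusted p = 0.017 to 0.029). With RA the change of Shroom3 at 78 h was -0.19 (adjusted p = 0.011, and 0.0056 without RA 78 h replicate 3). Rock1 passed in none of the 4 comparisons with day 2 in edgeR's quasi-likelihood test, with log2 fold changes from 0.02 to 0.22 and adjusted p-values from 0.12 to 0.86. Myh9 changed only slightly, by -0.24 (0.07, adjusted p = 0.0047) at 78 h without RA, which no longer passed without replicate 1 or 2 of either day 2 or untreated 78 h (adjusted p = 0.014 to 0.022). Rock2 changed by 0.37 (0.10, adjusted p = 0.0059) at 42 h with RA, lost without day 2 replicates 1 or 2 or RA 42 h replicate 3 (adjusted p = 0.011 to 0.044), and by -0.28 (adjusted p = 0.0034) at 78 h without RA when untreated 78 h replicate 1 was left out, against -0.19 with it.

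Another 91 genes of the same machinery were grouped by role, and 5 of these lists are described to place the members beside their partners. Their counts stand beside the shares of all genes that passed, which were 42.6% at 18 h, 37.5% at 42 h, 38.7% at 54 h, 33.3% at 66 h and 33.4% at 78 h, and a count near these is no result about a list. Of 13 genes of myosin light chains and their kinases and phosphatases, 5 were higher and 0 lower with RA at 18 h, where the median was 0.22, and 3 higher and 1 lower at 78 h, where it was 0.06. Mylk, which encodes the kinase that phosphorylates the regulatory light chain in smooth muscle, was the only gene of this list that was called. Like Myl9 it went from higher to lower with RA, but its timing differed. Mylk was called higher at 30 h and 42 h and lower at 78 h, and Myl9 higher at 18 h and lower at 78 h. At 30 h untreated organoids had 1.64 ± 0.283 CPM of Mylk and RA-treated ones 6.78 ± 1.22 CPM (SD, n = 3 here and for the genes that follow), a log2 fold change of 2.06 with a standard error of 0.24, and of 1.89 without RA 30 h replicate 2. At 78 h the arms were at 68.1 and 28.5 CPM (-1.25, 0.13). Myl12a, which encodes the light chain of most non-muscle cells, rose at 54, 66 and 78 h, by 0.32, 0.27 and 0.36 on the log2 scale.

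Among 11 linkers of actin to the apical junctions, 4 were higher and 2 lower at 54 h and 0 were called at any time point, while 5 passed at 18 h in edgeR's quasi-likelihood test (2 higher and 3 lower). Shroom4, the remaining Shroom gene, passed at 18 h alone, with -0.38 (standard error 0.06). Of 26 genes of actin assembly and turnover, 9 were higher and 8 lower at 18 h, 12 were higher and 4 lower at 54 h and 10 were higher and 3 lower at 78 h. The formin gene Fhod3 rose with RA from 13.0 ± 1.79 to 49.7 ± 15.5 CPM at 30 h (1.93, 0.24), which no longer passed without untreated 30 h replicates 1 or 2 (adjusted p = 0.013 in each) and was 2.14 without RA 30 h replicate 2. By 78 h its arms were at 59.7 and 52.5 CPM. Ssh2, which encodes a cofilin phosphatase, rose from 21.7 ± 0.408 to 45.8 ± 5.15 CPM at 8 h (1.08, 0.10, and 1.14 without RA 8 h replicate 3), which no longer passed without untreated 8 h replicates 1 or 3 (adjusted p = 0.012 and 0.013). Zyx, the gene of the focal adhesion protein zyxin, fell from 70.7 ± 4.02 to 30.7 ± 4.15 CPM at 30 h (-1.20, 0.13, and -1.32 without RA 30 h replicate 2) and rose by 0.62 (0.06) at 78 h.

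Of 13 actin crosslinkers and tropomyosins, 6 were higher and 0 lower with RA at both 42 h and 54 h, 5 higher and 2 lower at 66 h and 6 higher and 1 lower at 78 h. Tpm1 rose from 177 ± 7.17 to 376 ± 41.1 CPM (log2 fold change 1.08, standard error 0.08) and Tagln2 from 54.4 ± 1.76 to 111 ± 3.91 CPM (1.01, 0.06) at 54 h. Among 8 genes of the SRF and MRTF targets, of which 5 or 6 were tested, 5 were higher and 1 lower at 54 h with a median of 1.26. Tagln rose from 10.9 ± 0.620 to 38.9 ± 8.15 CPM (1.82, 0.14) and Ccn1 from 12.2 ± 1.08 to 38.4 ± 4.98 CPM (1.64, 0.11) at 54 h, and Acta2 from 0.337 ± 0.0887 to 1.27 ± 0.554 CPM (1.89, 0.41), which no longer passed without untreated 54 h replicates 2 or 3 (adjusted p = 0.019 and 0.014). Cnn1 went the other way, from 4.29 ± 0.659 CPM without to 1.49 ± 0.379 CPM with RA at 78 h (-1.51, 0.21). At 78 h, 2 of the list were higher (Tagln and Acta2) and 2 lower (Cnn1 and Srf) with RA.

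**Figure D5:**
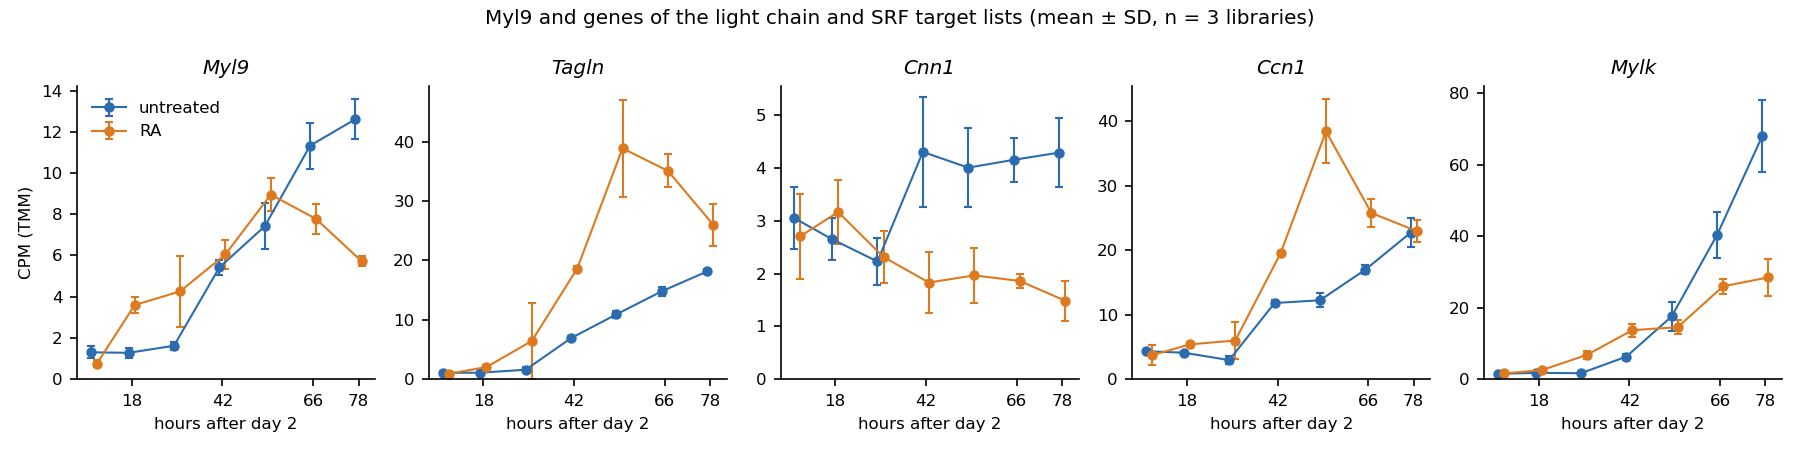
Levels (CPM after TMM normalization) of Myl9 and of Mylk, Tagln, Cnn1 and Ccn1, genes of the light chain and SRF target lists, against hours after day 2, as mean ± SD of 3 libraries, untreated in blue and RA-treated in orange. Myl9 and Mylk are higher with RA at 30 h and higher without RA at 78 h, Tagln stays higher with RA from 18 h on, and Cnn1 is lower with RA from 42 h on.

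Across the means of the 15 conditions, the members did not move as a block. Pearson's r of log2(CPM + 1) was 0.92 between Shroom1 and Rhob, 0.89 between Myh10 and Myl9 and 0.77 between Rock1 and Rock2, and -0.96 between Myl9 and Enah and -0.92 between Myh10 and Enah. The 15 conditions share their time course and, in part, their library series, so these values are descriptions without a test. Of 10097 genes compared, those most like Rhob were Atp7a and Dcaf5 (both r = 0.98), and those most like Myl9 were Col1a2 and Hmg20b (both r = 0.98). The nearest to Myh10 were Zhx2 and B4galt2 (both 0.99), to Myh9 Plec and Ptprj (0.91 and 0.90), to Enah Arnt and Ash2l (both 0.97), to Rock1 Dcaf12l1 and Knl1 (0.96 and 0.95) and to Rock2 Tcp11 and 4933413J09Rik (both 0.96). For the Shroom genes they were Tgm2 and Eps8l2 for Shroom1 (both 0.98), Tspan5 and Pphln1 for Shroom2 (both 0.93) and Rbm20 and Efs for Shroom3 (0.90 and 0.88).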

How the data were processed

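Poly(A) RNA of whole organoids was sequenced from 45 samples in 15 groups of 3 labelled biological replicates. Per the paper's methods and the submitters' processing notes, the authors trimmed reads with Trim Galore 0.5.0, removed abundant sequences with Bowtie2 2.3.4.1, aligned to GRCm38 with STAR and summarised the deposited counts per gene with featureCounts (Subread 1.6.2). The strand setting and the treatment of reads with several hits are not given in the sources used here. Exons of Shroom1 and Shroom3 overlap antisense genes that had at most 2 counts in a library.

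Counts were used as deposited, matched by Ensembl ID to GENCODE M21. The members and lists were chosen with earlier results of these data known. Each comparison was fitted to its own 6 libraries with edgeR 4.0.16 in R 4.3.3 (TMM, quasi-likelihood test, filterByExpr with a count minimum of 10 and a total minimum of 15, Benjamini-Hochberg adjustment over all genes tested). The thresholds, an adjusted p of 0.01 and a log2 fold change of 1, follow the paper. Standard errors were taken from the fold change and its F statistic. Ratios between members used counts plus 0.5 per kb of merged exons and two-sided exact permutation tests (scipy 1.17.1). All 10 members were named. Of each other list, up to 4 genes called at the most time points were named, with ties broken by the larger median change. Myl12b matched 2 identifiers and was not used. For each member, the 2 genes of highest Pearson's r over 15 conditions were named, among genes with a mean of at least 1 CPM and an SD of at least 0.2. A list of regulators is not reported here. Shroom4, Myl12a and Srf were named after their values were seen.

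Alternatives were library totals, DESeq2 size factors, DESeq2 1.42.0, other filters, 1 fit of all libraries, an adjusted p of 0.05, a replicate block, and each library left out. On simulated counts at 18 h (16413 genes), edgeR recovered 30% of genes changed 1.5-fold, 76% at 2-fold and 98% at 4-fold, with 1 false call. The simulation gave all genes the same dispersion, changed only genes above a set mean count and held no outlying library. These shares thus do not give the power for members of few counts, such as Shroom1, or for 8 h and 30 h. Total counts were 17298632 to 39688686 per library. Replicate numbers are shared between groups: deviations of same-numbered samples correlated above 0.1 in 3 of 3 pairs at 66 h (0.52, 0.21 and 0.25) and in no other comparison. Imaging and other measurements of the study were not analysed here.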

Additional observations from a re-analysis of the deposited data

Results flagged for a closer look

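The effect of RA differed among the 7 time points, by a test of that difference itself over 42 libraries (edgeR's quasi-likelihood test), for 6 members. The F statistic was 26.4 for Myl9, which was higher with RA at 18 h and lower at 66 h and 78 h. It was 10.9 for Rhob, which was higher with RA at 7 of 7 time points by unequal amounts, and 8.53 for Shroom3, lower at 18 h and higher at 42 h and 54 h. For the heavy chain genes it was 6.41 (Myh9, higher at 54 h and 78 h) and 5.27 (Myh10, higher at 54 h). The log2 fold changes of Myh9 were below 0 at 8, 18 and 30 h, where they did not pass with all libraries. Without the replicates of any 1 number, neither heavy chain gene passed this test (adjusted p = 0.011 to 0.038, edgeR's quasi-likelihood test). For Shroom2, lower throughout, it was 5.74.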

How the results depend on the processing

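Of 384 values of counts and ratios under other settings, 325 were taken as unchanged, and so were 351 of 393 with libraries left out. For ratios, unchanged refers to the sign alone and not to the size. With single libraries left out, the RA difference in Myh10 over Myh9 at 66 h ran from -0.12 to -0.0065 and was taken as unchanged. Counts taken as unchanged could also shift, as other actomyosin genes lower at 18 h ranged over 12 to 21. Of 1062 values of single genes under other settings, 946 kept direction and side of the threshold, 66 came to pass, 37 no longer passed and 13 turned in sign. With libraries left out, 645 of 768 such values kept both, 17 came to pass, 69 no longer passed and 37 turned in sign. The cause was not tested. Small differences may be missed at this depth and number of replicates.

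With library totals in place of TMM, members higher at 8 h were 1 (2 in the report) and other actomyosin genes higher 4 (2), other genes lower at 18 h 11 (18), members higher at 30 h 2 (1), and other genes lower at 66 h 7 (11). Members from day 2 were 5 higher and 1 lower at 42 h untreated (3 and 2), 1 lower at 78 h untreated (3) and 1 lower at 42 h with RA (2). Signs turned for Rock1 at 30 h (0.056), Enah at 42 h (0.024) and 66 h (0.042), Shroom3 at 78 h (0.0076), and from day 2 to 42 h for untreated Rock2 (0.0010) and RA-treated Myh9 (0.024). DESeq2 gave, at 8 h, 2 members lower (0) and 10 other genes higher (2) and 6 lower (0), and at 30 h 3 members higher (1) and 1 lower (0), with 11 other genes higher (7) and 6 lower (3). Myh10 at 78 h was -0.0063 with its size factors and -0.0062 with DESeq2.

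Without a filter on low counts, 2 members were lower at 8 h (0), with 6 other genes higher and 1 lower. At 30 h 3 members were higher and 6 other genes lower, at 42 h 5 members higher (3), at 54 h 2 members lower (1), at 66 h 17 other genes lower (11), from day 2 to 42 h untreated 5 members higher, and Shroom3 at 78 h was 0.0028. The interaction F was then 13.6 for Rock1, 7.34 for Rock2 and 4.35 for Enah, which passed. With at least 10 counts in every library, 1 member was lower from day 2 to 78 h untreated (3).

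In 1 fit of all 45 libraries, 3 members were lower at 8 h (0), with 14 other genes higher and 12 lower. At 18 h 1 member was lower (3), with 17 other genes higher (26) and 11 lower (18). At 30 h 3 members were higher and 1 lower, with 24 other genes higher and 13 lower, and at 42 h 9 other genes were lower (15). At 66 h 0 members were lower (2), with 21 other genes higher (32) and 6 lower (11). From day 2, 1 member was lower at both 42 h and 78 h untreated. Myh10 at 8 h was -0.0025, Enah at 66 h 0.00042, and from day 2 to 78 h untreated Shroom2 was -0.019 and Rock1 -0.018.

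At an adjusted p of 0.05, 2 members were lower at 8 h with 9 other genes higher and 6 lower, 3 members higher and 1 lower at 30 h with 12 and 10 other genes, 5 members higher at 42 h, 18 other genes lower at 66 h, and 5 members higher from day 2 to 42 h untreated. With libraries of the earlier series alone at 30 h, 3 members were higher and 2 lower, with 20 other genes higher and 16 lower.

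With the replicate number as a block, 0 members (2) and 1 other gene (2) were higher at 8 h and 2 members were lower at 54 h (1). Rock2 passed at 54 h (0.43) and 78 h (0.25) and Rock1 at 54 h (-0.30), while Rock1 at 8 h (0.65) and 18 h (0.37), Rock2 at 8 h (0.76) and, from day 2 to 78 h untreated, Shroom1 (1.55) and Shroom3 (-0.17) did not. Deviations of same-numbered samples correlated above 0.1 in 3 of 3 pairs only at 66 h, where Rock2 alone among members changed its side of the threshold. They correlated at 0.33, 0.02 and 0.35 at 78 h, and at 0.09, 0.22 and 0.22 at 30 h. At 54 h the values were 0.10, 0.04 and 0.05, and at 42 h -0.38, -0.01 and -0.39. Whether replicate numbers pair the samples at times other than 66 h is not settled by these values.

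With 1 library left out, counts at 8 h ranged over 0 to 3 members higher, 0 to 4 lower, 0 to 19 other genes higher and 0 to 9 lower. At 30 h they ranged over 0 to 4 and 0 to 2 members and 2 to 21 and 1 to 20 other genes. Members higher at 42 h were 1 to 4 and lower at 66 h 1 to 2. Other genes lower were 6 to 10 at 54 h, 6 to 10 at 66 h and 4 to 9 at 78 h. Members lower from day 2 untreated were 1 to 2 at 42 h and 1 to 3 at 78 h, and the interaction passed for 1 to 4 members. Values crossed 0 in Myh10 at 8 h (-0.058 to 0.079), 18 h (-0.11 to 0.093) and 78 h (-0.10 to 0.075), Enah at 8 h (-0.25 to 0.39), 30 h (-0.36 to 0.025), 66 h (-0.083 to 0.045) and 78 h (-0.015 to 0.076), Rock1 at 30 h (-0.33 to 0.079), 66 h (-0.29 to 0.18) and 78 h (-0.13 to 0.19), Rock2 at 30 h (-0.036 to 0.40), Myh9 at 42 h (-0.070 to 0.18) and Shroom3 at 78 h (-0.033 to 0.044). From day 2 they did in Rock2 (-0.25 to 0.011) at 42 h untreated, Shroom2 (-0.032 to 0.080) and Rock1 (-0.097 to 0.15) at 78 h untreated, Rock1 (-0.17 to 0.18) at 42 h with RA, and Rock1 (-0.11 to 0.20), Rock2 (-0.037 to 0.089) and Myh9 (-0.037 to 0.083) at 78 h with RA. The Myh10 over Myh9 ratio at 30 h differed by -0.028 to 0.39, the lowest without RA 30 h replicate 2.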
